A study of Homo sapiens with 20 samples.

Results

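Metastasis suppressor genes other than NME1 were examined in WM793 melanoma cells that overexpress NME1. The set held 8 genes, taken from the literature on metastasis suppression: KISS1, KISS1R, RECK, BRMS1, PEBP1, MAP2K4, MAP2K7 and ARHGDIB. A row of the expression table was included where its platform annotation named 1 of these genes, which gave 7 of 18708 rows. Of the 8 genes, 6 had a row of their own. MAP2K4 was named only on row 3710681, which is annotated to 3 symbols (MAP2K4, DYNLT1 and MAP2K4P1), so that row was assigned to no gene. No listed row named MAP2K7, which is not analysed here.

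WM793 is an established cell line from a melanoma in its vertical growth phase, the stage at which a tumour has begun to invade the dermis. The study compared 5 lines: the unmodified parental cells (Parent), and 4 WM793 lines that overexpress NME1 as the wild-type form (the line NME1-wild-type) or as 1 of its mutants (the lines NME1-E5A, NME1-K12Q and NME1-P96S). All were grown for 3 days, and total RNA was hybridised to Affymetrix Human Exon 1.0 ST arrays, 4 for each line and 20 in all. Within a line the arrays are called technical replicates in the design, and only 1 line was made for each construct. All p-values and intervals therefore cover the spread between arrays and not between separately made lines. The promoter of the constructs, and whether a line is a clone or a pool, are not given in the sources used here.

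Metastasis suppressors are genes whose loss favours the spread of a tumour with little effect on its growth at the primary site. They act at different points. KISS1 encodes a secreted protein that is cleaved to kisspeptins, which bind the G protein-coupled receptor KISS1R. RECK is a membrane-anchored inhibitor of matrix metalloproteinases. PEBP1, also called RAF kinase inhibitor protein, blocks the activation of MEK by RAF, and MAP2K4 and MAP2K7 are kinases that activate JNK, MAP2K4 also acting on p38. ARHGDIB is a cytosolic protein abundant in blood cells, and BRMS1 is a subunit of SIN3-HDAC complexes, which repress transcription. NME1 is itself a metastasis suppressor, and the mutants are known for lacking some of its biochemical activities. The comparison asks whether the level of these other suppressors differs with the NME1 construct.

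The 250 bases before the annotated start of KISS1 and of RECK are shown because these members varied together, in opposite directions, across the arrays (r = -0.717). Once the interquartile range of all values on each array was taken out, r within lines was -0.474. With that range itself KISS1 had r = -0.861 and RECK 0.766, and a shared regulation of these genes was not tested. The sequences are RefSeq's for GRCh38.p14, and 7 of the 8 genes had an entry (none was listed for KISS1R). Capitals mark GC boxes (GGGCGG, or CCGCCC on the other strand) and TATA boxes (TATAAA, or TTTATA on the other strand), each written 5′ to 3′ on the strand of the gene.
KISS1, chr1:204196492-204196741, minus strand: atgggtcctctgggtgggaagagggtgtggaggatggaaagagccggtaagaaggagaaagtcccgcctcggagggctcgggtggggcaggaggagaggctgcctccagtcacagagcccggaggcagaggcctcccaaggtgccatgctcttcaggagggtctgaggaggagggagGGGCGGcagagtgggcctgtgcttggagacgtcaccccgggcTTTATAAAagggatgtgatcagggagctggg
RECK, chr9:36036663-36036912, plus strand: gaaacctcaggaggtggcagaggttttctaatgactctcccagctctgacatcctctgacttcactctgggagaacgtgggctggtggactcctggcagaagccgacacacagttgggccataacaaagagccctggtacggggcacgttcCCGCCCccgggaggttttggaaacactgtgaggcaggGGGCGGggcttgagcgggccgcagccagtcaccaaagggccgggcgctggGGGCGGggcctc

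In KISS1 there was 1 GC box and a TATA box read on both strands, whose overlapping matches began 31 and 29 bases before the start. In RECK there were 3 GC boxes and no TATA box match. Over 34943 such windows of the same length, 42.5% held a GC box and 10.8% a TATA box. KISS1 had 8 CpG dinucleotides and RECK 12, against a median of 11 over all windows. ARHGDIB had 0 to 3 in its 3 windows, while BRMS1 had 21, PEBP1 23, MAP2K4 30 and MAP2K7 38. A match is a description of the letters, and nothing in the arrays bears on binding at these positions.

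The arrays differed in the spread of their values. The interquartile range over all rows lay between 2.19 and 3.16 log2 units, and the lowest were those of Parent replicate 2 (2.19), replicate 3 of NME1-P96S (2.33) and replicate 2 of NME1-K12Q (2.46). Correlations between arrays lay between 0.910 and 0.995, and 0 pairs of arrays were identical. The row that holds NME1, which is annotated to NME1 and NME1-NME2, had a mean of 9.53 ± 0.173 (SD, n = 4 arrays) in Parent. In NME1-wild-type the mean was 0.28 above Parent, in NME1-E5A 0.26, in NME1-P96S 0.25 and in NME1-K12Q 0.23, and none of these passed the test. Among markers of the melanocyte lineage, SOX10 and S100B had means of 9.38 and 8.61, and PMEL and MLANA had 4.71 and 3.69. Of this lineage's 11 markers 8 were measured, and 0 were called in any comparison. Likewise 0 were called among the 7 of 8 fibroblast, 7 of 9 keratinocyte and 6 of 6 endothelial markers measured. In bulk RNA, fewer cells of a type and less RNA per cell cannot be told apart. The deposited table has no detection calls, so no value can be read as present or absent, and since probes differ in brightness, the means of different genes show no order of abundance.

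No member differed between any 2 lines past the threshold, an adjusted p under 0.05 with a difference of at least 1.5-fold (limma over 18384 features, Benjamini-Hochberg adjusted within each comparison). With 7 rows and 10 pairs of lines this made 0 of 70 comparisons, and the lowest adjusted p of a member was 0.850. Against Parent, 0 of 7 rows were called with NME1-wild-type, where 0.0326% of all features were called, 0 with NME1-E5A (0.218%), 0 with NME1-K12Q (0.00544%) and 0 with NME1-P96S (0.103%). Between the overexpressing lines, 0 of 7 were called for NME1-wild-type against NME1-E5A (0.207% of features), against NME1-K12Q (0.0381%) and against NME1-P96S (0.201%). The same held for NME1-E5A against NME1-K12Q (0.169%) and NME1-P96S (0.239%), and for NME1-K12Q against NME1-P96S (0.277%). Calls were this rare over the whole array, so 0 of 7 is close to the background in every comparison.

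At an unadjusted p under 0.05, 2 of the 70 comparisons passed, where between 1.29% and 4.11% of features did so in each comparison. They were KISS1 in NME1-P96S against Parent (3.14% of features in that comparison) and ARHGDIB in NME1-E5A against NME1-K12Q (2.79%). The arrays of 2 lines did not overlap in 2 of the 70, both for KISS1. The F test over the 5 lines called 0 of 7 rows, where it called 0.555% of features, and 0 of 7 had an unadjusted p under 0.05 (3.29% of features). The share of variance that lay between lines was 30.5% for RECK, 29.5% for ARHGDIB, 28.9% for BRMS1, 28.3% for KISS1, 3.94% for PEBP1, 3.43% for row 3710681 and 2.57% for KISS1R. Its median over all features was 11.9%. The unadjusted p of the F test was 0.353 for RECK, 0.211 for ARHGDIB, 0.403 for BRMS1 and 0.204 for KISS1.

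**Figure D1:**
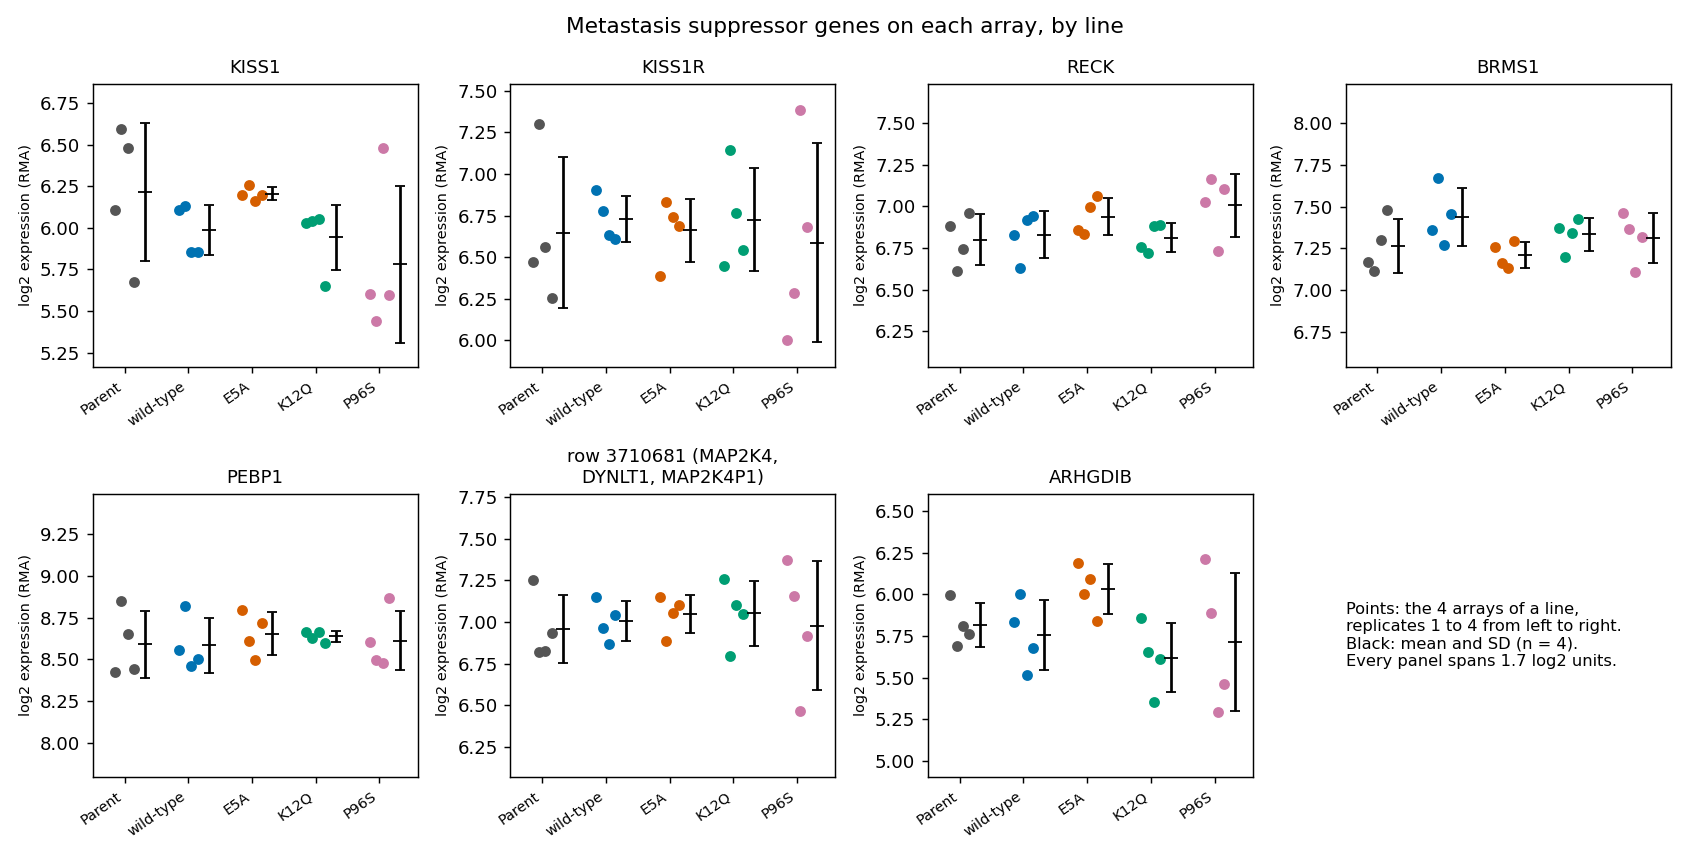
Log2 expression of the 7 member rows on each of the 20 arrays, grouped by line. Points are arrays, and the black marks give each line's mean and SD (n = 4). The arrays of the 5 lines overlap for nearly every row, and the widest spread within a line is that of KISS1R in NME1-P96S, from 6.00 to 7.38.

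KISS1, the secreted ligand, had the largest difference of any member, a lower level in NME1-P96S that did not pass the test. Its log2 values were 6.11, 6.59, 6.48 and 5.67 on Parent replicates 1 to 4, and 6.11, 6.13, 5.85 and 5.86 in NME1-wild-type. They were 6.20, 6.26, 6.16 and 6.19 in NME1-E5A, 6.03, 6.04, 6.05 and 5.65 in NME1-K12Q, and 5.61, 5.44, 6.48 and 5.59 in NME1-P96S. All 4 NME1-E5A arrays lay above all 4 NME1-wild-type arrays and all 4 NME1-K12Q arrays, while Parent and NME1-P96S each spanned more than 0.9 of a log2 unit and overlapped every other line. Such a separation was seen in 3.3% of all features for NME1-E5A against NME1-wild-type and in 3.54% against NME1-K12Q.

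The mean of KISS1 was 6.21 ± 0.415 (SD, n = 4 arrays, as for all means here) in Parent, 6.20 ± 0.039 in NME1-E5A, 5.99 ± 0.152 in NME1-wild-type, 5.94 ± 0.196 in NME1-K12Q and 5.78 ± 0.473 in NME1-P96S. NME1-P96S was lower than Parent by a log2 difference of -0.43 (1.35-fold, 95% interval -0.86 to -0.01, adjusted p = 0.850 by limma). NME1-E5A was 0.42 above NME1-P96S (adjusted p = 0.9998). In that order from Parent down no neighbours passed the test, and only NME1-E5A and NME1-wild-type did not overlap. NME1-P96S replicate 3, an array of narrow spread, was the highest of its line. Without it, the difference from Parent was -0.67 (adjusted p = 0.145) and that of NME1-E5A over NME1-P96S was 0.66 (adjusted p = 0.106). With the 3 arrays of narrowest spread left out, the latter was called (0.66, adjusted p = 0.0339), in a comparison where 204 features were then called. With the interquartile range of each array as a covariate it was 0.31 (adjusted p = 0.142), and the difference from Parent was -0.21.

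KISS1R, the kisspeptin receptor, was the most variable member within lines and had the smallest share of its variance between them. Its log2 values were 6.47, 7.30, 6.56 and 6.25 in Parent, 6.90, 6.78, 6.63 and 6.61 in NME1-wild-type, and 6.39, 6.83, 6.74 and 6.69 in NME1-E5A. In NME1-K12Q they were 6.45, 7.14, 6.77 and 6.54, and in NME1-P96S 6.00, 6.28, 7.38 and 6.68. The 3 highest of the 20 values were those of the 3 arrays of narrowest spread, and every pair of lines overlapped. The line means lay between 6.59 in NME1-P96S and 6.73 in NME1-wild-type, and the pooled SD within lines was 0.378, against a median of 0.262 over all features. The interval for NME1-wild-type against Parent, around a difference of 0.08, ran from -0.43 to 0.60, so a change of 1.5-fold (0.58) in KISS1R lies inside what these arrays allow.

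Of 14 genes that carry the kisspeptin signal or process the ligand, 12 were measured, and 0 were called in either direction in any comparison. Their median difference from Parent was 0.01 in NME1-wild-type, 0.02 in NME1-E5A, 0.07 in NME1-K12Q and 0.06 in NME1-P96S, beside medians of -0.03, -0.04, -0.05 and -0.06 over all features. GNAQ and GNA11, the G protein subunits that couple KISS1R to phospholipase C, are the 2 named from this list (those with the highest mean on the array). GNAQ differed from Parent by 0.19, 0.16, 0.27 and 0.16 in the 4 lines in that order, and GNA11 by 0.11, 0.15, 0.19 and 0.13.

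**Figure D2:**
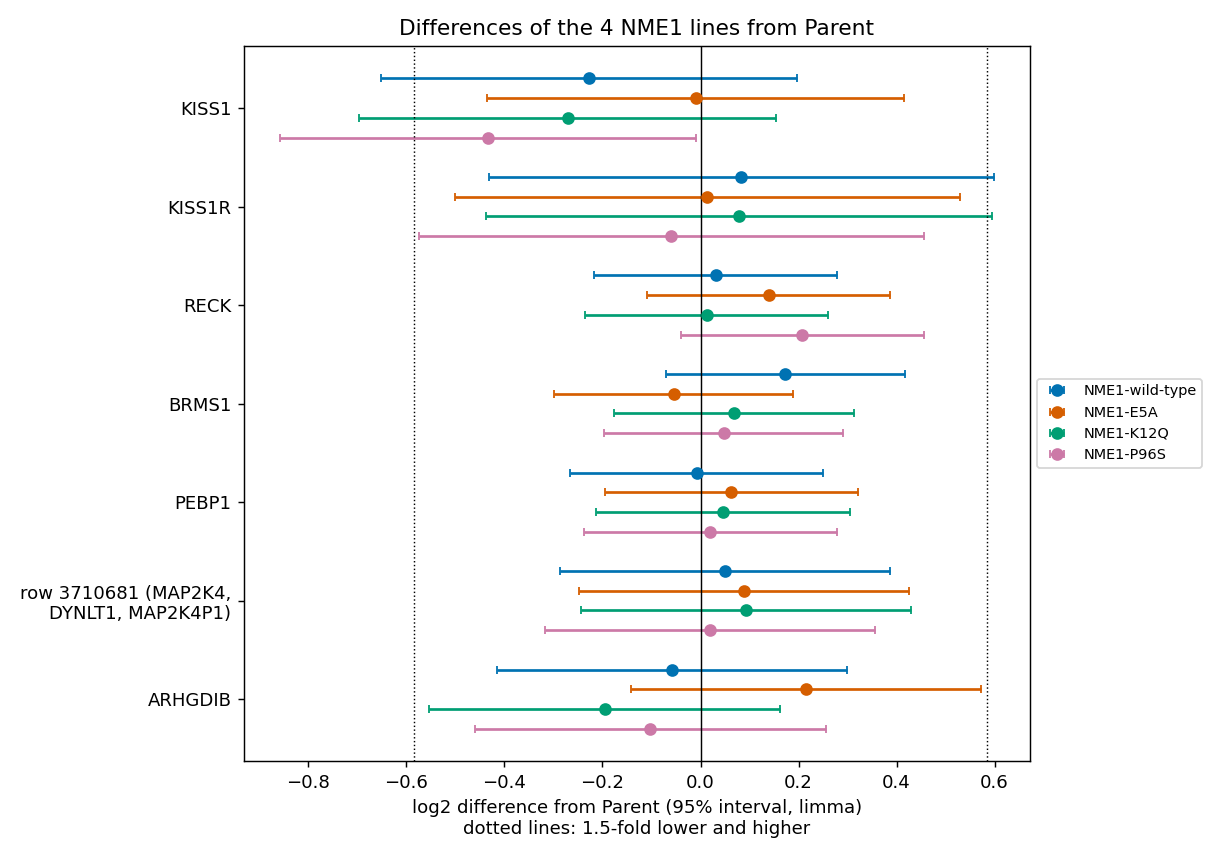
Log2 difference of each member row between each overexpressing line and Parent, with 95% intervals from the limma fit. Only the interval of KISS1 in NME1-P96S, from -0.86 to -0.01, leaves out 0, and its adjusted p is 0.850.

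RECK was nearly level over the lines, with log2 values of 6.88, 6.61, 6.74 and 6.96 in Parent, 6.83, 6.63, 6.92 and 6.94 in NME1-wild-type, and 6.86, 6.83, 7.00 and 7.06 in NME1-E5A. In NME1-K12Q they were 6.75, 6.72, 6.88 and 6.89, and in NME1-P96S 7.03, 7.16, 6.73 and 7.10. In NME1-P96S all arrays but replicate 3 were at 7.03 or above, as was 1 array of NME1-E5A, and all lines overlapped. The largest difference was that of NME1-P96S over Parent, 0.21 (95% interval -0.04 to 0.46). All 10 intervals between lines for RECK lay inside 1.5-fold.

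Among genes that RECK acts on or with, 2 differed between overexpressing lines. Of 14 proteases, protease inhibitors and Wnt7 signalling partners of RECK, 12 were measured. Against Parent 0 of 12 were called. In the 6 comparisons between overexpressing lines, MMP9 was called in NME1-wild-type against NME1-E5A (where 0.207% of all features were called) and in NME1-E5A against NME1-P96S (0.239%). WNT7B was called in NME1-K12Q against NME1-P96S (0.277%), and the other 10 genes were called in none. MMP9 is a gelatinase that degrades basement membrane collagen and whose activity RECK restrains, and WNT7B is a Wnt ligand whose signal RECK helps to receive. Both are named because they were called, that is, after their values were seen.

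MMP9 had log2 values of 6.95, 6.82, 6.95 and 7.10 in NME1-E5A. They were 6.18, 6.61, 6.34 and 6.09 in Parent, 6.32, 6.27, 6.08 and 6.31 in NME1-wild-type, 6.37, 6.63, 6.30 and 6.43 in NME1-K12Q, and 5.90, 6.00, 6.57 and 6.25 in NME1-P96S. Every NME1-E5A array lay above all 16 others. MMP9 was 1.71-fold higher in NME1-E5A than in NME1-P96S (0.78, SE 0.144, limma adjusted p = 0.0159). Against NME1-wild-type it was 1.64-fold higher (0.71 higher, adjusted p = 0.0424). Against Parent the difference was 0.65 (1.57-fold, adjusted p = 0.0736) and against NME1-K12Q 0.52 (adjusted p = 0.326), neither of them called. NME1-E5A and Parent arrays did not overlap for MMP9, as for 1.99% of all features. That share was 3.3% against NME1-wild-type, 3.54% against NME1-K12Q and 3.01% against NME1-P96S.

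The MMP9 calls rest on small margins. The call against NME1-wild-type was lost in 15 of the 20 fits that left out 1 array; it was kept when the array left out was Parent replicate 2, Parent replicate 4, replicate 2 of NME1-K12Q, or replicate 1 or 3 of NME1-P96S. Over all 20 fits the difference of NME1-wild-type from NME1-E5A stayed between -0.75 and -0.65. The call against NME1-P96S was lost without NME1-E5A replicate 1, 3 or 4 or NME1-P96S replicate 1, 2 or 4, with differences between 0.68 and 0.80 in those 6 fits. It was also lost when only the arrays of those lines were fitted (adjusted p = 0.271), and limma's treat against 1.5-fold gave neither MMP9 call. In NME1-E5A against Parent, 1 gene of the list of RECK proteases and partners was called in some other settings. The lowest adjusted p of that list (limma) was 0.0125 after centring each array on its median and 0.00612 after quantile normalization. It was 6.61e-05 with the interquartile range as a covariate and 0.00183 without the 3 arrays of narrowest spread. These counts do not name the gene, and MMP9 against Parent was not recomputed by itself.

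WNT7B had log2 values of 5.53, 6.38, 6.07 and 6.10 in NME1-K12Q and of 4.35, 4.66, 5.47 and 4.97 in NME1-P96S. These did not overlap, as for 2.22% of all features. Means in the other lines were 5.55 in Parent, 5.50 in NME1-wild-type and 5.50 in NME1-E5A, between those of NME1-K12Q (6.02) and NME1-P96S (4.86). The level was 2.23-fold higher in NME1-K12Q than in NME1-P96S (1.16, SE 0.217, limma adjusted p = 0.0177). The call was lost without NME1-K12Q replicate 2, 3 or 4 or NME1-P96S replicate 1, 2 or 4, with WNT7B differences between 0.99 and 1.20 in those 6 fits. It was also lost when only the arrays of those lines were fitted (adjusted p = 0.414) and with limma's treat against 1.5-fold. Against Parent WNT7B was not called in either line (0.47 in NME1-K12Q and -0.69 in NME1-P96S).

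The 2 genes of the RECK list that are named by their array mean were not called. MMP2, the other gelatinase, differed from Parent by -0.09 in NME1-wild-type, 0.07 in NME1-E5A, 0.16 in NME1-K12Q and 0.22 in NME1-P96S. TIMP1, a secreted metalloproteinase inhibitor, differed by 0.19, 0.19, 0.14 and 0.12 in the same order. The median of the RECK list was -0.06, 0.07, 0.13 and -0.10. RECK itself and MMP9 had their highest means in different lines, and no difference in RECK was called. RECK had its highest mean in NME1-P96S (7.01), where MMP9 had its lowest. Its second highest was in NME1-E5A (6.94), where MMP9 had its highest.

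**Figure D3:**
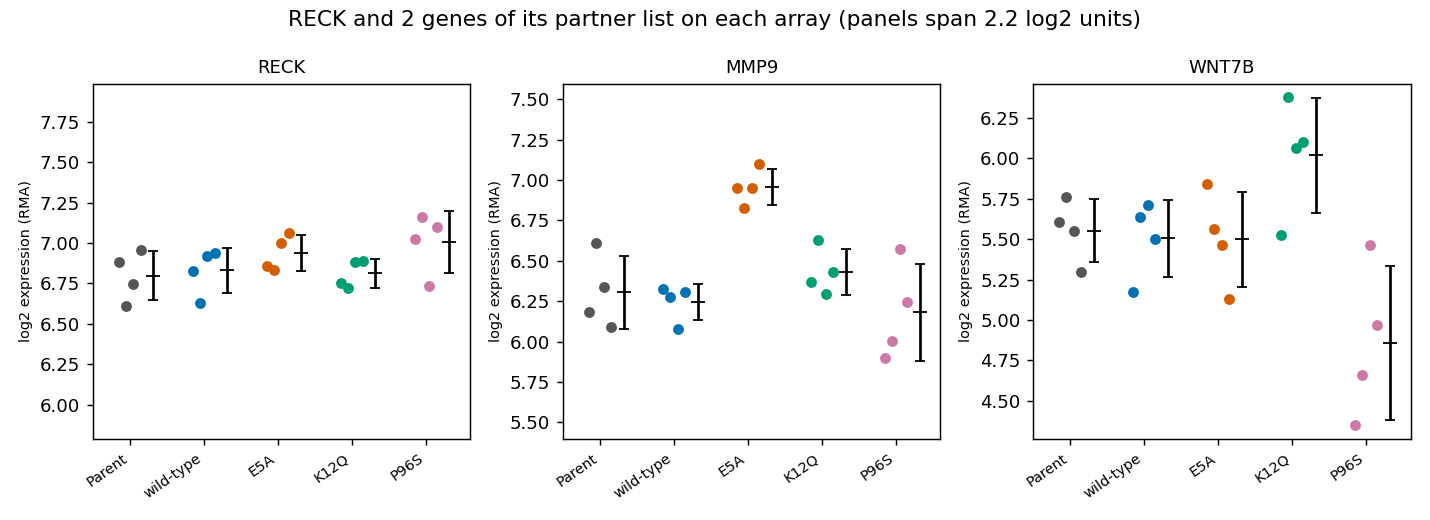
Log2 expression of RECK, MMP9 and WNT7B on each of the 20 arrays by line, with black marks for the mean and SD of a line (n = 4). MMP9 is highest on the 4 NME1-E5A arrays (6.82 to 7.10). For WNT7B the NME1-K12Q and NME1-P96S arrays do not overlap, as for 2.22% of all features.

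PEBP1, the inhibitor of RAF signalling, varied least across the line means. On a log2 scale it measured 8.42, 8.85, 8.65 and 8.44 in Parent, 8.55, 8.82, 8.46 and 8.50 in NME1-wild-type, and 8.79, 8.61, 8.50 and 8.72 in NME1-E5A. In NME1-K12Q they were 8.66, 8.63, 8.66 and 8.60, and in NME1-P96S 8.61, 8.50, 8.48 and 8.87. All lines overlapped, and the highest and lowest line means were 0.07 apart (1.05-fold). The 10 intervals lay between -0.33 and 0.32, so differences in PEBP1 above 1.26-fold between these lines fall outside them. Of 14 genes of the RAF-MEK-ERK cascade only 6 were measured on rows of their own, and 0 were called in any comparison. MAPK3 (ERK1) differed from Parent by 0.09, 0.10 and 0.09 with the wild-type, E5A and K12Q forms and by -0.02 with P96S, and HRAS by 0.19, 0.14, 0.13 and 0.01.

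The row shared by MAP2K4, DYNLT1 and MAP2K4P1 also stayed level. Its log2 values were 7.25, 6.82, 6.83 and 6.93 in Parent, 7.15, 6.96, 6.87 and 7.04 in NME1-wild-type, and 7.15, 6.88, 7.05 and 7.10 in NME1-E5A. In NME1-K12Q they were 7.26, 6.80, 7.10 and 7.05, and in NME1-P96S 7.37, 7.16, 6.47 and 6.92. The highest and lowest line means of row 3710681 were 0.09 apart, and its 10 intervals lay inside 1.5-fold. DYNLT1, a dynein light chain, also has a row of its own, whose values had r = 0.523 with row 3710681 over the 20 arrays and differed from Parent by -0.24 to 0.21. Of 27 other genes of the JNK and p38 cascades 23 were measured, and 0 were called. ATF2, a transcription factor that JNK and p38 phosphorylate, differed from Parent by 0.17, 0.18, 0.12 and 0.21 in the overexpressing lines, in the same order, while the list's median was 0.01, 0.00, -0.01 and 0.02. MAPKAPK2, the other gene of this list named by its array mean, had a mean of 8.995 in Parent. In the overexpressing lines it was 9.145, 8.996, 9.13 and 8.991.

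After KISS1, ARHGDIB was the member with the largest difference between 2 lines, NME1-E5A and NME1-K12Q. Its log2 values were 6.19, 6.00, 6.09 and 5.84 in NME1-E5A and 5.86, 5.65, 5.35 and 5.61 in NME1-K12Q. They were 6.00, 5.69, 5.81 and 5.76 in Parent, 5.84, 6.00, 5.51 and 5.68 in NME1-wild-type, and 6.21, 5.89, 5.29 and 5.46 in NME1-P96S. The NME1-E5A and NME1-K12Q arrays overlapped by 1 array of each, and NME1-P96S spanned the range of all other lines. NME1-E5A was higher than NME1-K12Q by 0.41 (1.33-fold, 95% interval 0.05 to 0.77, adjusted p = 0.9999 by limma). Against Parent, NME1-E5A differed by 0.22 (95% interval -0.14 to 0.57) and NME1-K12Q by -0.20 (-0.55 to 0.16).

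Because ARHGDIB is abundant in leukocytes, their markers were measured beside it: 9 of 12 had a row and 0 were called. Their summed log2 level over the arrays ran from 42.3 to 51.4 in Parent, 43.6 to 46.6 in NME1-wild-type, 44.8 to 46.2 in NME1-E5A, 42.9 to 47.7 in NME1-K12Q and 41.1 to 48.8 in NME1-P96S. The means of the 9 markers ran from 3.30 for PTPRC, which encodes CD45, to 8.20 for CD68, a lysosomal protein abundant in macrophages. The part of such cells in the ARHGDIB values was not tested.

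BRMS1 had its highest mean in NME1-wild-type. Its log2 values were 7.36, 7.67, 7.27 and 7.45 there and 7.17, 7.11, 7.30 and 7.48 in Parent. They were 7.26, 7.16, 7.13 and 7.30 in NME1-E5A, 7.37, 7.20, 7.34 and 7.43 in NME1-K12Q, and 7.46, 7.36, 7.11 and 7.32 in NME1-P96S. All lines overlapped. NME1-wild-type was above NME1-E5A by 0.23 (adjusted p = 0.9998 by limma) and above Parent by 0.17 (95% interval -0.07 to 0.42). All 10 intervals for BRMS1 lay inside 1.5-fold.

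Of 16 other subunits of SIN3-HDAC complexes 14 were measured and 0 were called. In NME1-wild-type 12 of the 14 had a higher mean than in Parent, with a median difference of 0.13. In NME1-E5A it was also 12 of 14, with a median of 0.10, and the counts were 5 with a median of -0.08 in NME1-K12Q and 7 with -0.01 in NME1-P96S. The comparisons share the Parent arrays, so these counts are not independent. Without the 3 arrays of narrowest spread the SIN3 medians in NME1-wild-type and NME1-E5A were both 0.05. RBBP7, a histone-binding subunit, differed from Parent by 0.18, 0.11, 0.09 and 0.07, and its relative RBBP4 by 0.10, 0.01, -0.14 and -0.04.

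Among 15 further metastasis suppressors, all of them measured, 0 were called in any comparison, and 12 had a higher mean in NME1-P96S than in Parent, with a median of 0.14 (0.07 with the interquartile range as a covariate). With the wild-type, E5A and K12Q forms 9, 10 and 9 were higher, with medians of 0.07, 0.06 and 0.07. The same covariate gave medians of 0.01, 0.07 and 0.0007 for these forms. Without the 3 arrays of narrowest spread they were -0.02, 0.06 and 0.04, and 0.11 with P96S. Over all features the medians were -0.03, -0.04, -0.05 and -0.06 in the 4 lines. NDRG1, a stress-responsive suppressor, differed from Parent by -0.13, 0.36, 0.21 and 0.29 in the 4 lines, and TPM1, an actin-binding tropomyosin, by 0.14, -0.13, 0.02 and 0.07.

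KISS1, KISS1R and RECK values varied with the spread of the array, and PEBP1 and ARHGDIB values did so little. Over the 20 arrays, which share their normalization, Pearson's r with the interquartile range was -0.885 for KISS1R, -0.861 for KISS1 and 0.766 for RECK, and Spearman's correlation was -0.756, -0.792 and 0.829. Without the 2 arrays farthest from the median spread (Parent replicate 2 and NME1-P96S replicate 2), r was -0.855, -0.788 and 0.631. Over all 20 arrays r was 0.623 for row 3710681, 0.554 for BRMS1, -0.339 for PEBP1 and 0.331 for ARHGDIB, and without those 2 arrays it was 0.616, 0.497, -0.081 and 0.336. Many features did the same: 24.0% of all features had a larger r in size than KISS1R, 28.4% than KISS1 and 44.0% than RECK. These correlations describe the arrays and were given no test.

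**Figure D4:**
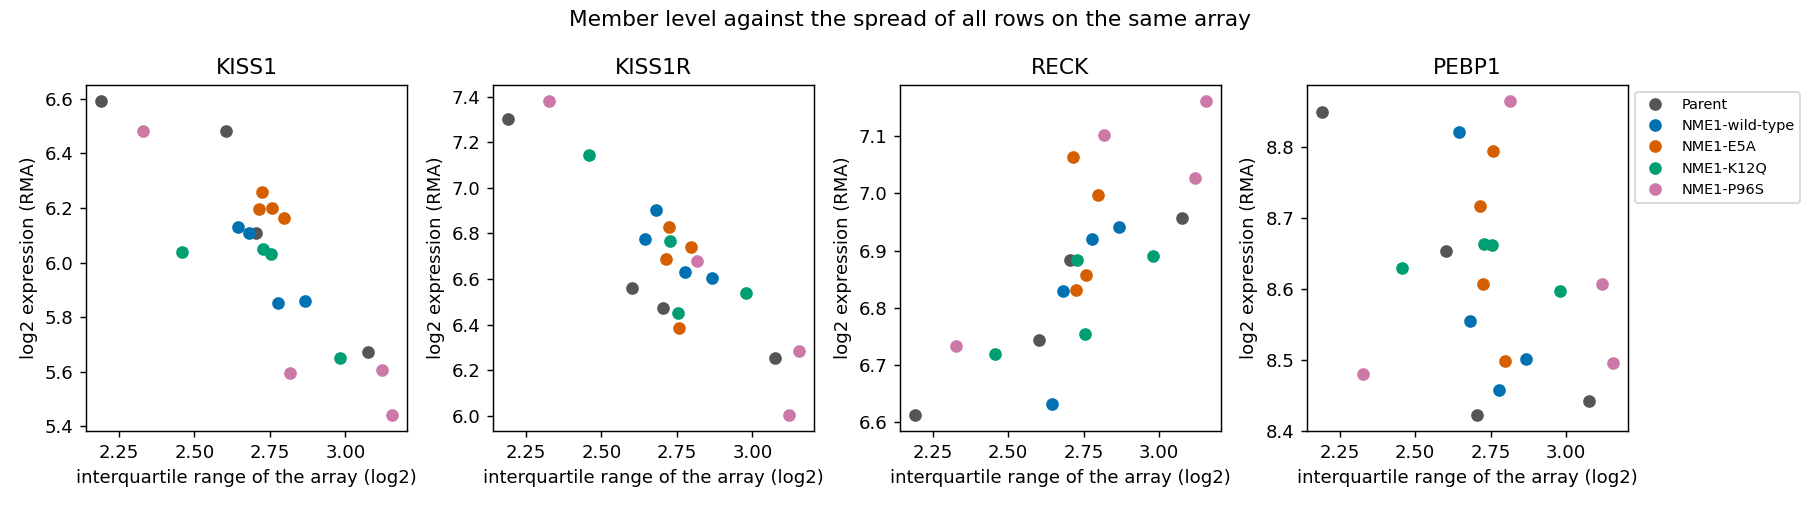
Log2 expression of KISS1, KISS1R, RECK and PEBP1 against the interquartile range of all log2 values on the same array, for 20 arrays coloured by line. KISS1 (r = -0.861) and KISS1R (r = -0.885) decline and RECK (r = 0.766) climbs with the range.

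Relations between members were computed with and without this spread. KISS1 and KISS1R had r = 0.665 over the 20 arrays and 0.778 within lines, but -0.337 within lines once the interquartile range was taken out. KISS1 and RECK had r = -0.717, -0.839 within lines, and -0.474 after the same step. Of the 21 pairs of member rows, 8 had an r over 0.5 in size, and 5 had one within lines once the interquartile range was taken out. Among these, ARHGDIB and row 3710681 stayed at 0.639, from 0.609 over all arrays. KISS1R stayed at -0.584 with row 3710681 (from -0.738) and at -0.563 with ARHGDIB (from -0.524). BRMS1 with PEBP1 (0.682, from 0.125) and RECK with ARHGDIB (-0.588, from 0.101) passed 0.5 in size only after that step.

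The genes most like each member over the 20 arrays, by Pearson's r, were sought among the single-symbol genes with a mean at or above the median of all features (7390 for KISS1). They were CYP2W1 (0.905) and SYNGR3 (0.900) for KISS1, DRD4 (0.952) and UBALD1 (0.949) for KISS1R, and ELP2 (0.916) and NUBPL (0.906) for RECK. For BRMS1 they were SSU72 (0.873) and COMMD9 (0.865), for PEBP1 RPS28 (0.810) and CARD19 (0.770), for ARHGDIB MAP1LC3B (0.845) and CD99 (0.843), and for row 3710681 DDX52 (0.937) and PPP2R5C (0.934). CYP2W1 and DRD4 themselves had r = -0.985 and -0.961 with the interquartile range. None of these 14 genes was called in any comparison.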

How the data were processed

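RMA was applied by the authors, and the deposited values are its log2 expression, per the labels' design text and the submitters' processing notes. These list limma too, with neither version nor role. Of build and annotation, nothing is stated in the sources used here. The 20 arrays were grouped by title into 5 lines of 4. Of 18708 rows, 14735 had 1 symbol in the platform annotation, 2873 several and 1100 none listed. Rows with several symbols were assigned to no gene, and the row with the highest mean stood for each gene, which left out 324 rows and gave 18384 features. A line-mean model was fitted to all arrays with limma 3.58.1 (R 4.3.3; 15 residual degrees of freedom), with p-values Benjamini-Hochberg adjusted over all features and 95% intervals from the moderated fit. A feature was called at an adjusted p under 0.05 and at least 1.5-fold. The fit was tested on simulated data with independent noise for each row and array, which leaves out the spread shared within real arrays. Named list genes are those called and the 2 with the highest mean in each list. The result of 1 further gene list is not reported here. For each member the 2 genes with the highest r are named. The members and gene lists were chosen with earlier results of these data known, and the tests of MMP9 and WNT7B in other settings were added after their values were seen. The number of arrays limits the precision. Other settings tried were every row as a feature, centring, quantile normalization, the array interquartile range as a covariate, the dimmest 25% of features left out, only the lines compared, a replicate block, limma's treat, and leaving out each array or the 3 of narrowest spread.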

Additional observations from a re-analysis of the deposited data

Results flagged for a closer look

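In 2 of 35 groups of 4 arrays (7 rows in 5 lines), both for KISS1, 1 array lay far from the other 3 by Dixon's criterion (a gap to the nearest array above the 95% critical share of the range). Chance gives this in about 1 in 20 groups. KISS1 in NME1-K12Q was 5.65 on replicate 4, the lowest of its line, against 6.03 on the nearest array. In NME1-P96S KISS1 was 6.48 on replicate 3, the highest of its line, against 5.61 on the nearest. NME1-P96S replicate 3 had the second lowest interquartile range of all arrays (2.33) and NME1-K12Q replicate 4 a high one (2.98). Whether the spread of these arrays sets the KISS1 values was not tested.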

How the results depend on the processing

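The count of members called was recomputed under 29 other settings, 20 of which left out 1 array, and stayed at 0 in every comparison with 1 exception: NME1-E5A against NME1-P96S gave 1 (KISS1) without the 3 arrays of narrowest spread. Leaving out each array in turn gave 0 to 0. The replicate numbers 1 to 4 are shared by the lines. Deviations of same-numbered arrays had r between -0.849 and 0.810 (median 0.235), with 25 of 40 pairs over 0.1. For 11 of 20 arrays the deviations correlated best with those of their own number. Every pair of lines had a positive r for replicate 1, from 0.105 to 0.601, while signs were mixed for the other numbers. The arrays thus share some structure by number, which the reported fit did not model and the replicate block did. With the replicate block 0 members were called (lowest adjusted p 0.600), and MMP9 in NME1-wild-type against NME1-E5A had an adjusted p of 0.0637. With only the arrays of the lines compared, the adjusted p of MMP9 in NME1-E5A against NME1-P96S was 0.271 and that of WNT7B 0.414, and limma's treat against 1.5-fold called neither. Of the 70 member differences, none of them called, 37 changed sign in at least 1 setting, and 0 moved by 1 SD or more. Of 350 list counts, 9 differed by over 1.5 times (without the 3 narrowest arrays, 1 kisspeptin gene was called in NME1-E5A against NME1-P96S), and 7 of 350 list medians moved by 1 SD or more; the cause was not tested. With 4 technical arrays a line, a difference in KISS1 of up to 1.81-fold lies inside at least 1 interval.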
